A study of Mus musculus with 6 samples.

Results

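The genes of the cell surface and of the sheet of matrix beneath the epithelium were followed in the uteri of mice that lacked *Sox17* in the uterine epithelium. The set held 39 genes of the 20145 genes matched to a probe: every integrin alpha and beta subunit and every laminin chain whose symbol ends in a number, together with *Itgav*, the nidogens *Nid1* and *Nid2*, the heparan sulfate proteoglycans *Hspg2* (perlecan) and *Agrn* (agrin), the laminin receptor *Dag1* (dystroglycan) and the ligands *Spp1*, *Fn1* and *Vtn*. They were chosen by symbol and name, and no measured value entered the rule, but earlier results of these data were known when they were chosen. Of the 39, 20 were integrin subunits, 11 were laminin chains and 8 were the others, and *Itga10* alone had no matched probe.

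Whole uteri came from 3 Sox17f/f and 3 Sox17ed/ed female mice at Gestation Day (GD) 3.5 of natural pregnancy, the time of receptivity before the embryo attaches. Sox17f/f mice carried floxed *Sox17* alleles and no Cre, and are labelled as wildtype. Sox17ed/ed mice carried the same floxed alleles and 1 Ltf iCre allele, whose Cre is driven from the lactoferrin locus in uterine epithelium from puberty on, so that by design the deletion spares stroma, muscle and vessels. Females were mated at 8 to 10 weeks of age, the uteri were taken without embryos, and RNA of 1 uterus was hybridised to each Agilent mouse array in 1 colour. Values below are log2 processed signals after quantile normalization, and every fold change is Sox17ed/ed relative to Sox17f/f.

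Integrins are receptors made of 1 alpha and 1 beta subunit that hold cells to the matrix and join it to the cytoskeleton. Laminins are trimers of an alpha, a beta and a gamma chain that form the sheet of the basement membrane, where nidogens and perlecan join it to type IV collagen and where integrins and dystroglycan bind it. In the uterus at receptivity, integrins of the luminal epithelium and their ligand osteopontin are studied as partners in embryo attachment, and the epithelial basement membrane is what an implanting embryo has to cross.

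*Sox17* itself read 12.21, 12.07 and 12.22 on the Sox17f/f arrays and 9.75, 9.59 and 9.81 on the Sox17ed/ed arrays. All Sox17ed/ed values lay below all Sox17f/f values, a log2 fold change of -2.45 (SE 0.09, limma adjusted p = 2.66e-05). Whether its probe lies in the deleted stretch was not determined. Between 60.7% and 65.7% of the non-control spots were well above background on the Sox17f/f arrays, against 56.8% to 59.4% on the Sox17ed/ed arrays. The arrays were on 1 slide with each genotype in a row of its own, so position on the slide and genotype cannot be told apart. Markers of epithelium (12 of 12), stroma (10 of 10), smooth muscle (8 of 8) and endothelium (8 of 8) were measured, so the labelled tissue held its defining markers. The summed signal of the epithelial list was 75209 to 78970 in Sox17f/f and 103194 to 126067 in Sox17ed/ed uteri, that of the endothelial list 15497 to 16582 and 11892 to 13256, and that of the smooth muscle list 494466 to 546211 and 368433 to 443909. The stromal list summed to 518423 to 539467 and 452577 to 512489, and no gene of it passed the thresholds. Of the 12 epithelial markers 7 had a log2 fold change above 0 and 5 below, so the higher sum was not shared by all. It was carried by a few bright genes that rose, among them *Krt19* (mean 12.02 in Sox17f/f and 14.12 in Sox17ed/ed uteri). *Krt18* (14.70 and 14.54), *Cldn3* (13.43 and 12.27) and *Cldn7* (13.05 and 12.33) were lower. The epithelial sum therefore does not show how much epithelium was present.

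In the uteri without epithelial *Sox17*, the laminin chain *Lamb3* and the integrin subunit *Itgb6* rose, the laminin chain *Lamc3* fell, and agrin and nidogen 2 rose, while *Nid1*, perlecan and dystroglycan did not pass. Of the 38 members tested, 11 passed the thresholds used by the study, an unadjusted p under 0.01 and a fold change of at least 1.4 (28.9%, against 12.5% of the 14847 genes tested). Of these, 8 were higher in Sox17ed/ed uteri (6.04% of all genes tested were) and 3 were lower (6.47% of all genes tested were). The count was 7 without the second Sox17ed/ed replicate. At a limma adjusted p under 0.05 with no fold threshold there were 18 members, 12 higher and 6 lower (47.4%, against 18.9% of all genes tested). The arrays of the genotypes did not overlap for 23 members (60.5%, against 40.3%). The median log2 fold change of the members was 0.10, and over all genes tested it was -0.00, so the members as a whole did not lie far to either side. The median size of the change, taken without its sign, was 0.31 for the members and 0.17 for all genes. All 38 members were well above background on every array used, so none passed the filter by 1 genotype alone. In whole tissue, fewer cells of a type and less RNA in each cell cannot be told apart.

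**Figure D1:**
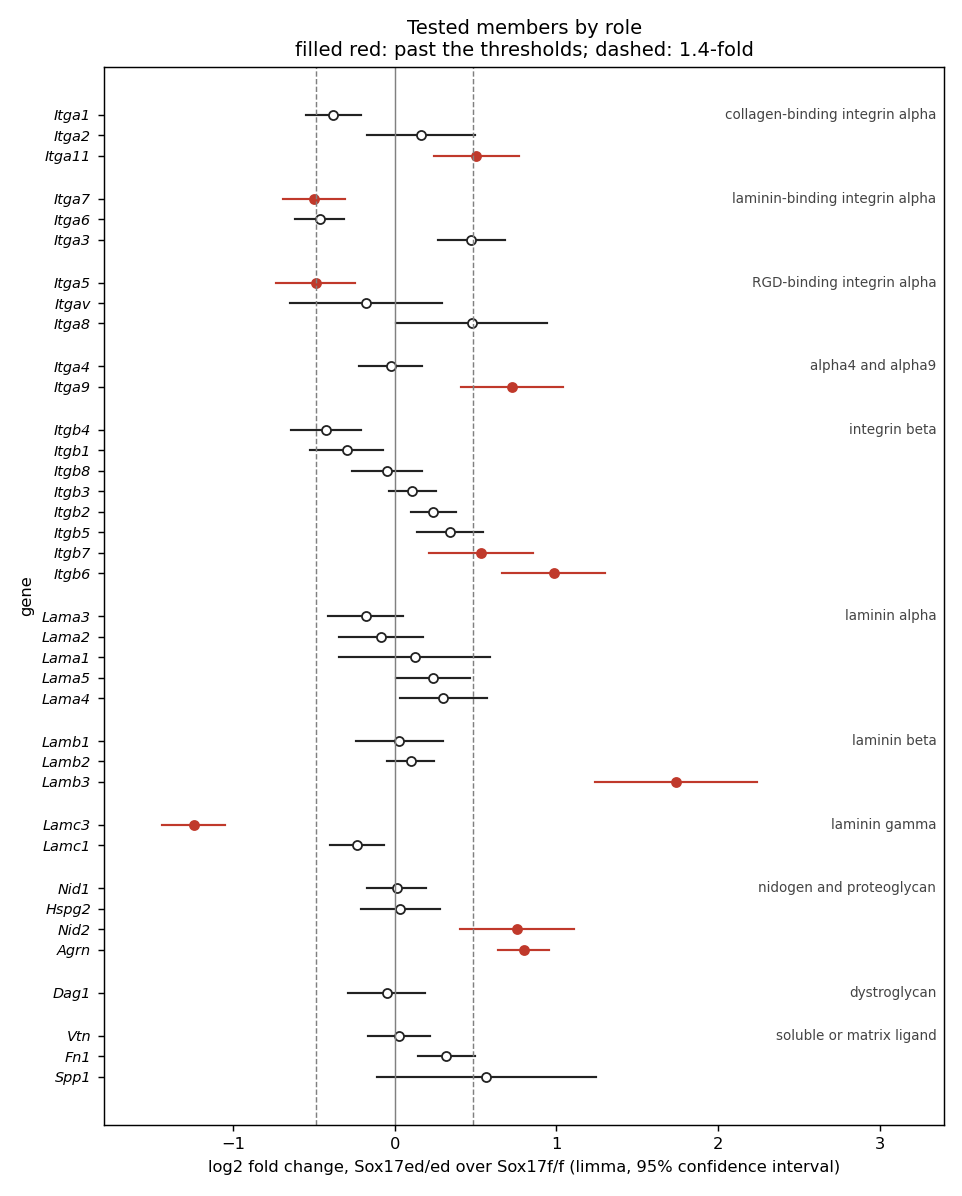
Log2 fold change (Sox17ed/ed over Sox17f/f, x axis) of tested members with its limma 95% confidence interval as a bar, grouped by role, members past the thresholds in filled red and dashed lines at 1.4-fold. *Lamb3* lies farthest to the right at 1.74 and *Lamc3* farthest to the left at -1.24.

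Promoter sequences were set beside the members that changed, because SOX proteins bind the short core ATTGT, which is read as ACAAT on the opposite strand. The RefSeq promoter table of mouse assembly GRCm38.p6 holds 300 bases for each start, 250 before and 50 after, and 26 of the 39 members had an entry, 32 promoters in all. Either strand of the core was in 5 of these (15.6%), against 31.02% of the 32851 promoters of the table. Of the 11 members past the thresholds, 7 had an entry and 3 of them, *Itgb6*, *Itga9* and *Itga5*, held the core. These 7 genes had 10 promoters, of which 3 held the core, and the 31.02% is a share of promoters, not of genes. These 3 promoters are shown because they hold it, and that of *Lamb3* because its fold change was the largest among the members, each 5′ to 3′ in the direction of the gene with the core in capitals. *Lamb3* is on the plus strand at chr1:193301744-193302043, *Itgb6* on the minus strand at chr2:60673644-60673943, *Itga9* on the plus strand at chr9:118711442-118711741 and *Itga5* on the minus strand at chr15:103366742-103367041.
Lamb3: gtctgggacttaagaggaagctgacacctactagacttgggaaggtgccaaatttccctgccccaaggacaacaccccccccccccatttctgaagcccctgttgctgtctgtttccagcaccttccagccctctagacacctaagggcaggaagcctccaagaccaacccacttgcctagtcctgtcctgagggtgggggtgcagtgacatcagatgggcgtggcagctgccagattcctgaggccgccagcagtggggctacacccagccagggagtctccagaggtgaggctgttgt
Itgb6: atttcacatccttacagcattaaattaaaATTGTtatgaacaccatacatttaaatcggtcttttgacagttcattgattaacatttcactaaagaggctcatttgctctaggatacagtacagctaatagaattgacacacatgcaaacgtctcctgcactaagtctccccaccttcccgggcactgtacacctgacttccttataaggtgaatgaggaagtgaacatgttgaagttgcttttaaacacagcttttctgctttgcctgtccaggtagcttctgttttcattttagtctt
Itga9: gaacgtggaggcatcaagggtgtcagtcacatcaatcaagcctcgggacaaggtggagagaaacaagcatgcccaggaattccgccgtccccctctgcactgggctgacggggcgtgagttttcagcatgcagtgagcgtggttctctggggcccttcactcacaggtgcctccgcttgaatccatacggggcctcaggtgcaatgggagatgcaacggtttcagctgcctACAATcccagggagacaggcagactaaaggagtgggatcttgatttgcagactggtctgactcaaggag
Itga5: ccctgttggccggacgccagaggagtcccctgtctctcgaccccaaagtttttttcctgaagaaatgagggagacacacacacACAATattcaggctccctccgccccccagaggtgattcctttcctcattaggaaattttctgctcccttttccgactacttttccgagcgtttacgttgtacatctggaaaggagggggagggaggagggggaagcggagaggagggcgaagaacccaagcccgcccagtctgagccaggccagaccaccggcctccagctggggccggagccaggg
Counted from the start of the gene, the first base of the core lay at -221 in *Itgb6*, at -19 in *Itga9* and at -167 in *Itga5*. The other *Itgb6* start and both *Lamb3* starts of the table held no core in their windows. A match is a string of letters and no binding was measured here.

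Among the laminin chains *Lamb3* rose and *Lamc3* fell. *Lamb3*, the beta chain of the laminin that anchors stratified epithelium through hemidesmosomes, read 5.69, 5.86 and 5.12 on the Sox17f/f arrays and 7.45, 7.07 and 7.36 on the Sox17ed/ed arrays. The Sox17ed/ed arrays all lay above the Sox17f/f arrays, with the lowest reading of all in replicate 3 of Sox17f/f. The log2 fold change was 1.74 (SE 0.21, limma adjusted p = 0.00275), a 3.34-fold rise. With normexp background correction it was 0.99, still past the thresholds. *Lama3*, the alpha chain of that trimer, had a log2 fold change of -0.18 (SE 0.10, adjusted p = 0.245), with a second probe of wide error at 1.17 (SE 1.89).

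*Lamc3*, a gamma chain found in few tissues, fell. Its log2 signals were 10.35, 10.25 and 10.45 in Sox17f/f uteri and 9.17, 9.12 and 9.03 in Sox17ed/ed uteri. The groups did not overlap, and the arrays of each lay close together. This was a log2 fold change of -1.24 (SE 0.08, limma adjusted p = 0.000222), 2.37-fold lower.

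The laminin chains that did not pass ranged from -0.23 for *Lamc1* (SE 0.07, adjusted p = 0.0657), the gamma chain of most laminins, to 0.30 for *Lama4* (SE 0.11, adjusted p = 0.111), the alpha chain of vessel walls. *Lama5*, the main alpha chain under adult epithelium, was at 0.24 (SE 0.09, adjusted p = 0.135). *Lama1* was at 0.12, *Lamb2* at 0.10, *Lamb1* at 0.03 and *Lama2*, the alpha chain around muscle, at -0.09. The 95% interval of *Lamb1*, the common beta chain, ran from -0.24 to 0.30, so a change as large as that of *Lamb3* lay outside it.

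**Figure D2:**
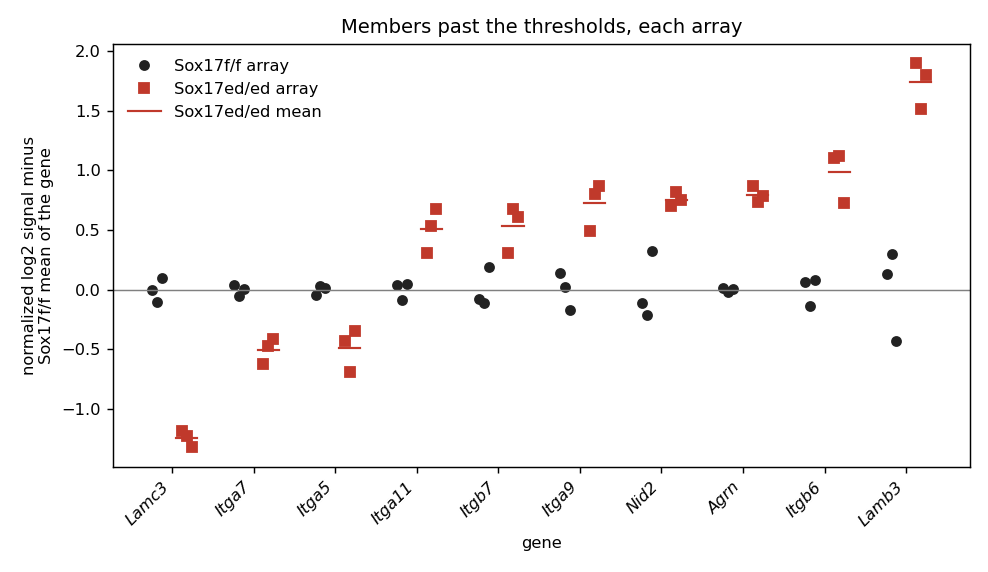
Normalized log2 signal of each array minus the Sox17f/f mean of the gene (y axis) for 10 of the 11 members past the thresholds, with Sox17f/f arrays as black circles, Sox17ed/ed arrays as red squares and the Sox17ed/ed mean as a red line. For each of the 10 genes no Sox17ed/ed point falls within the range of the Sox17f/f points.

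Among the partners of laminin in the basement membrane, agrin and nidogen 2 rose, and *Nid1* and perlecan, their close relatives in role, did not pass. *Agrn*, a heparan sulfate proteoglycan that binds laminin and dystroglycan, read 13.13, 13.10 and 13.12 in Sox17f/f and 13.99, 13.85 and 13.91 in Sox17ed/ed uteri. The replicates of each genotype lay close together and far from the other genotype. The log2 fold change was 0.80 (SE 0.06, limma adjusted p = 0.000555), 1.74-fold. A second probe of *Agrn* gave 0.37 (SE 0.11, unadjusted p = 0.0147), so its direction was the same and its size smaller.

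*Nid2*, which links laminin to type IV collagen, read 9.11, 9.02 and 9.55 in Sox17f/f and 9.93, 10.05 and 9.98 in Sox17ed/ed uteri. The Sox17ed/ed arrays were all higher, and the third Sox17f/f array was the nearest to them. Its log2 fold change was 0.75 (SE 0.15, limma adjusted p = 0.0169). *Nid1* had a log2 fold change of 0.01 (95% interval -0.17 to 0.19), and its 2 other probes gave -0.14 and -0.20. *Hspg2* was at 0.03 (-0.21 to 0.28) and *Dag1* at -0.05 (-0.29 to 0.19). For these 3 genes a change as large as that of *Nid2* lay outside the interval, while smaller changes could not be told from none.

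Of the 12 integrin alpha subunits, 11 were tested and 4 passed the thresholds (36.4%, against 12.5% of all genes tested). *Itga9* and *Itga11* were higher and *Itga7* and *Itga5* lower. Among the laminin receptors, *Itga7*, the subunit of muscle, read 11.80, 11.71 and 11.76 in Sox17f/f and 11.13, 11.29 and 11.34 in Sox17ed/ed uteri. All 3 Sox17ed/ed arrays were lower, with a log2 fold change of -0.50 (SE 0.08, limma adjusted p = 0.00792). The smooth muscle marker list had 6 of 8 genes below 0, with *Actg2* past the thresholds, and its part in the *Itga7* result was not tested. *Itga6*, the epithelial laminin receptor that pairs with *Itgb4* in hemidesmosomes, read 14.12, 14.11 and 14.09 in Sox17f/f and 13.67, 13.68 and 13.57 in Sox17ed/ed uteri. These groups did not overlap either, and its -0.46 (SE 0.06, adjusted p = 0.00459), 1.38-fold lower, fell just short of the fold threshold. It was past it with scaling to the 75th percentile (-0.52) and with normexp background correction (-0.52).

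*Itga3*, the other epithelial laminin receptor, was fitted on 5 arrays. Its spot on the third Sox17ed/ed array was marked as an outlier by the scanner software and read 223377, against 298 to 466 on the other arrays. Without that spot the values were 8.30, 8.45 and 8.39 in Sox17f/f and 8.85 and 8.86 in Sox17ed/ed uteri, both above the Sox17f/f values. The log2 fold change was 0.47 (SE 0.08, limma adjusted p = 0.0172), 1.39-fold, under the fold threshold. The estimates of the laminin-binding alpha subunits were thus below 0 for *Itga7* and *Itga6* and above 0 for *Itga3*, of which *Itga7* alone passed.

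Of the subunits that bind fibronectin and other ligands with the RGD motif, *Itga5*, the classical fibronectin receptor, read 9.21, 9.28 and 9.27 in Sox17f/f and 8.83, 8.57 and 8.91 in Sox17ed/ed uteri. The Sox17ed/ed arrays were all lower and more spread. Its log2 fold change of -0.49 (SE 0.10, limma adjusted p = 0.0215), 1.403-fold lower, was at the edge of the threshold. *Itga8* was at 0.48 (SE 0.19, adjusted p = 0.140), and replicate 3 of Sox17f/f, at 9.33, lay inside the Sox17ed/ed range of 9.27 to 9.51. *Itgav*, which pairs with 5 of the beta subunits measured here, was at -0.18 (SE 0.19, adjusted p = 0.568) with a spread of 8.03 to 8.80 among the Sox17f/f arrays.

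*Itga9*, a receptor of osteopontin and tenascin, rose. It read 9.76, 9.64 and 9.45 in Sox17f/f and 10.11, 10.42 and 10.49 in Sox17ed/ed uteri. The lowest Sox17ed/ed array stood above the highest Sox17f/f array. *Itga9* had a log2 fold change of 0.72 (SE 0.13, limma adjusted p = 0.0129), 1.65-fold. *Itga4*, its nearest relative and the receptor of leukocytes for Vcam1, was at -0.02 (SE 0.08, adjusted p = 0.863).

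Of the collagen receptors, *Itga11*, the subunit of fibroblasts, read 9.02, 8.89 and 9.03 in Sox17f/f and 9.29, 9.51 and 9.66 in Sox17ed/ed uteri. All Sox17ed/ed arrays were higher, the first by the least, with a log2 fold change of 0.50 (SE 0.11, limma adjusted p = 0.0245). *Itga1*, which is found on muscle and vessels, was at -0.38 (SE 0.07, adjusted p = 0.0144), 1.30-fold lower and under the fold threshold, and a second probe gave -0.37. *Itga2*, the collagen receptor of epithelium and platelets, was at 0.16 (SE 0.14, adjusted p = 0.456). The endothelial list had 8 of 8 genes below 0, with *Esam* past the thresholds, and its part in the *Itga1* value was not tested.

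Of the 8 beta subunits, 2 passed and both were higher (25%, where 12.5% of all genes tested passed and 6.04% were higher). *Itgb6*, an epithelial subunit that pairs with *Itgav* and activates latent TGF-beta, read 6.57, 6.37 and 6.58 in Sox17f/f and 7.61, 7.63 and 7.23 in Sox17ed/ed uteri. Even the lowest Sox17ed/ed array, that of replicate 3, was above all Sox17f/f arrays. Its log2 fold change was 0.98 (SE 0.13, limma adjusted p = 0.00417), 1.98-fold. The other *Itgb6* probe did not rise clearly over background on any of the arrays and was not tested.

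*Itgb7*, the subunit by which lymphocytes home to mucosa, read 10.14, 10.11 and 10.41 in Sox17f/f and 10.53, 10.90 and 10.83 in Sox17ed/ed uteri. The groups did not overlap, though the first Sox17ed/ed array and the third Sox17f/f array were close. Its log2 fold change was 0.53 (SE 0.13, limma adjusted p = 0.0383). *Itgb2*, the subunit of leukocytes, was at 0.24 (SE 0.06, adjusted p = 0.0355), under the fold threshold. The macrophage and leukocyte list summed to 25822 to 29154 in Sox17f/f and 28709 to 33769 in Sox17ed/ed uteri, with *Nkg7* past the thresholds upward and *Cd14* downward. Its *Cd68* had no value in the test, 5 of the 9 others were above 0, and the part of these cells in the *Itgb7* result was not tested.

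The remaining beta subunits did not pass. *Itgb4*, the partner of *Itga6* in hemidesmosomes, read 11.08, 11.07 and 10.84 in Sox17f/f and 10.59, 10.51 and 10.61 in Sox17ed/ed uteri. The groups did not overlap, and its value was -0.43 (SE 0.09, limma adjusted p = 0.0218), 1.34-fold lower. *Itgb5*, a partner of *Itgav* that binds vitronectin, was at 0.34 (SE 0.08, adjusted p = 0.0389). *Itgb1*, the partner of most alpha subunits, was at -0.30 (SE 0.09, adjusted p = 0.0762), and a second probe gave -0.51 with an unadjusted p of 0.00108, past both thresholds. *Itgb3*, the partner of *Itgav* that is followed as a marker of receptivity, was at 0.11 (SE 0.06, adjusted p = 0.259), while its second probe gave -0.31 (SE 0.14). The direction of *Itgb3* is therefore not settled by these probes. *Itgb8*, the remaining partner of *Itgav*, was at -0.05.

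**Figure D3:**
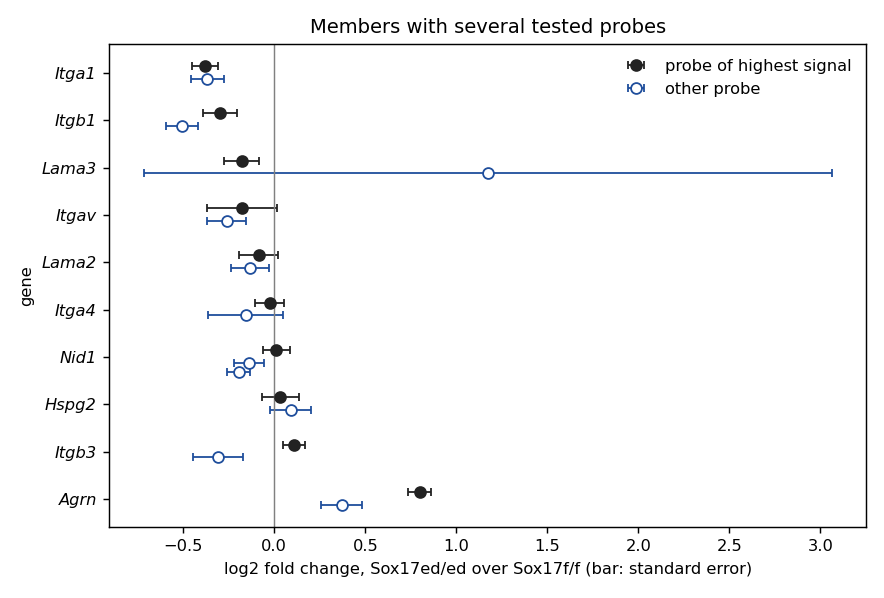
Log2 fold change with its standard error for the 10 members with several tested probes, the probe of highest signal filled and the others open. Of the 11 other probes 7 have the sign of the probe used and 4 the opposite sign, and the second *Lama3* probe has the widest error at 1.89.

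Of the ligands, none passed the thresholds. *Fn1* (fibronectin) read 15.90, 15.89 and 15.82 in Sox17f/f and 16.27, 16.21 and 16.09 in Sox17ed/ed uteri. All Sox17ed/ed arrays were higher, and its 0.32 (SE 0.07, limma adjusted p = 0.0292), 1.25-fold, was under the fold threshold. *Spp1* (osteopontin), the secreted ligand of *Itga9* and of *Itgav* with *Itgb3*, read 7.599, 7.86 and 7.18 in Sox17f/f and 8.38, 8.40 and 7.56 in Sox17ed/ed uteri. The third Sox17ed/ed array lay inside the Sox17f/f range, and the 0.57 (SE 0.28, adjusted p = 0.211) did not pass. Without that array the value was 0.84, past the thresholds. *Vtn* (vitronectin) was at 0.02 (95% interval -0.17 to 0.22).

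For several members 1 array decided the call, and those named here kept their direction. Values under 0.485 in size were under the fold threshold on the log2 scale, and calls lost at larger values were lost on p. *Itgb7* did not pass without Sox17f/f replicate 1 (0.49) or 2 (0.47) or without Sox17ed/ed replicate 2 (0.46) or 3 (0.50). *Itga5* did not pass without Sox17f/f replicate 2 (-0.47) or 3 (-0.48) or without Sox17ed/ed replicate 2 (-0.39). With scaling to the 75th percentile or with normexp, *Itga5* (-0.48 and -0.47) did not pass either, nor did *Itga7* with normexp (-0.47). With no filter on low signal the log2 fold change of *Itgb7* was 0.53 as before, but its p did not pass. *Itga11* did not pass without Sox17f/f replicate 2 (0.46) or without Sox17ed/ed replicate 2 (0.49) or 3 (0.42), and *Itga7* without replicate 1 of Sox17f/f (-0.48) or of Sox17ed/ed (-0.44). In the other direction, *Itga3* passed without Sox17f/f replicate 2 (0.51), and *Itga8* (0.69) and *Itgb4* (-0.51) passed without Sox17f/f replicate 3. *Agrn*, *Itga9*, *Itgb6*, *Lamb3*, *Lamc3* and *Nid2* passed with any 1 array left out.

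In the lists around the members, most of the other basement membrane genes that passed were higher and most of the other integrin ligands that passed were lower. Of 30 other basement membrane genes, 28 were tested and 11 passed, 8 higher and 3 lower (39.3%, where 12.5% of all genes passed, with a median log2 fold change of 0.13). The count was 7 without Sox17ed/ed replicate 3 and 6 with normexp background correction. *Bcam*, the receptor on epithelium for the *Lama5* chain, read 9.60, 9.78 and 9.75 in Sox17f/f and 11.57, 11.11 and 11.36 in Sox17ed/ed uteri. Every Sox17ed/ed array was more than a log2 unit above every Sox17f/f array. Its log2 fold change was 1.63 (SE 0.13, limma adjusted p = 0.000487), 3.11-fold. *Egfl6* was within background on all Sox17f/f arrays and was at least 3.51-fold higher in Sox17ed/ed uteri. This bound sets the mean Sox17ed/ed level against the lowest signal called well above background on each Sox17f/f array or, where higher, the reading of the probe.

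Collagens of this list went both ways. *Col7a1* and *Col17a1*, which anchor stratified epithelium to the matrix, were at 1.06 (SE 0.07) and 0.83 (SE 0.17), with adjusted p of 0.000289 and 0.0204. *Col17a1* was dim, reading 4.54, 3.99 and 3.97 on the Sox17f/f arrays, and was well above background on 2 of these, so its size is less certain. *Col4a3* and *Col4a4* rose by 0.78 and 0.65, and *Col4a1*, a chain of type IV collagen in nearly all basement membranes, fell by 0.59 (SE 0.06, adjusted p = 0.00196). *Tinagl1*, a matrix protein that binds laminins and integrins, fell by 0.61. The type IV collagen chains named here thus passed in both directions.

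Markers of stratified squamous epithelium, whose hemidesmosomes carry the laminin of *Lamb3*, were read beside these genes. *Krt5*, a keratin of basal cells, was likewise within background on all Sox17f/f arrays and read 7.80, 4.94 and 5.33 on the Sox17ed/ed arrays. It was at least 5.25-fold higher in Sox17ed/ed uteri, but replicate 1 carried this bound, which was 2.83-fold without it, a value computed after seeing the data. *Trp63* was at -0.12 (SE 0.10, limma adjusted p = 0.468). Its probe read 11.51, 11.38 and 11.24 in Sox17f/f and 11.16, 11.39 and 11.24 in Sox17ed/ed uteri. By qRT-PCR the paper found *Trp63* mRNA higher in Sox17ed/ed than in Sox17f/f uteri. Its staining found TRP63-positive cells only sporadically in young Sox17ed/ed epithelium. The array showed no such rise, and the reason for this difference was not tested. *Krt6a*, *Krt4* and *Dsg3* did not pass the filter on low signal, and 1 of the 5 tested markers of 8 passed. The summed level of the squamous list, carried mostly by *Trp63*, was 2512 to 3032 in Sox17f/f and 2571 to 2823 in Sox17ed/ed uteri. This sum therefore rests on a gene for which array and qRT-PCR differ. The mean log2 signal of the 5 tested markers was 5.76 to 5.98 in Sox17f/f and 6.30 to 7.21 in Sox17ed/ed uteri. Of these 5, 4 had a log2 fold change above 0, and the mean includes the *Krt5* readings within background. Of the 12 uterine epithelial markers 7 passed (58.3%, against 12.5% of all genes tested), 5 higher and 2 lower. Among them *Krt19* was at 2.10, *Cldn3* at -1.16 and *Cldn7* at -0.71. The part of either in the rise of *Lamb3*, *Itgb6* and *Agrn* was not tested.

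Of 22 other integrin ligands, 18 were tested and 9 passed, 8 of them lower (50%, where 12.5% of all genes passed and 6.47% were lower, with a median log2 fold change of -0.24). *Ccn2*, a secreted matricellular ligand of several integrins, read 12.80, 12.76 and 12.74 in Sox17f/f and 9.47, 9.81 and 9.90 in Sox17ed/ed uteri. All Sox17ed/ed arrays were below all Sox17f/f arrays, a log2 fold change of -3.04 (SE 0.12, limma adjusted p = 3.48e-05). *Ccn1*, its relative, fell by 1.48 and the thrombospondin *Thbs1* by 1.05. *Vwf*, the ligand that endothelium makes for platelets, was at -0.84, *Icam1* at -0.83, *Tnc* (tenascin, a ligand of *Itga9*) at -0.75, *Thbs2* at -0.69 and *Vcam1* (the ligand of *Itga4*) at -0.60. So *Itga9* rose while its ligand *Tnc* fell, and *Vcam1* fell while its receptor *Itga4* did not pass.

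Among the cytoplasmic partners of integrins, of 27 genes of focal adhesions, 26 were tested and 3 passed, all lower (11.5%, near the 12.5% of all genes tested, with a median of -0.17). These were the kinase *Ptk2b* at -0.79 (SE 0.17), the adaptor *Bcar1* at -0.58 (SE 0.06) and the actin crosslinker *Actn1* at -0.54 (SE 0.08). With a limma adjusted p under 0.05 and no fold threshold, 7 of the 26 counted, all lower (26.9%, against 18.9% of all genes tested). Of the 26, 19 had a log2 fold change below 0 and 7 above. No gene of the dystroglycan complex and its glycosylation passed among 21 tested (median -0.05). Of these, 10 had an unadjusted p under 0.05, as did 5026 of the 14847 genes tested. At a limma adjusted p under 0.05 there were 4 (19.0%, near the 18.9% of all genes tested). In that list 1 gene passed without Sox17f/f replicate 1 or 2 or Sox17ed/ed replicate 3. Of 8 integrin subunits whose symbols lie outside the rule, 6 were tested and 2 passed, both lower (33.3%, against 12.5% of all genes tested). The count was 1 without Sox17f/f replicate 2, without any 1 of the Sox17ed/ed arrays or with normexp. *Itgbl1* was at -1.40 (SE 0.21) and the platelet subunit *Itga2b* at -0.83 (SE 0.19), where no marker of platelets passed and *Gp1ba*, *Gp9* and *Ppbp* did not pass the filter on low signal.

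**Figure D4:**
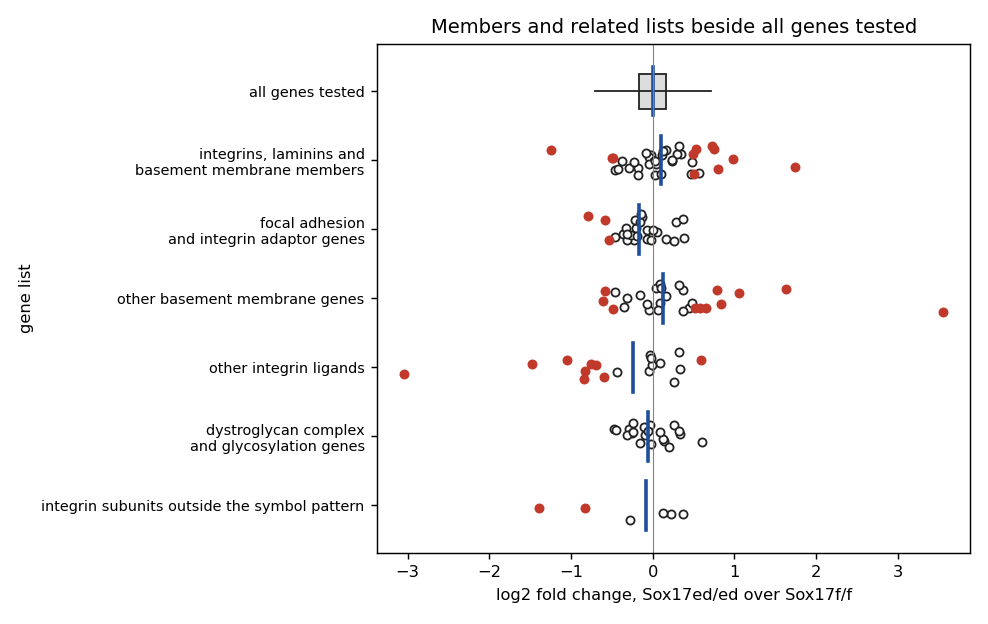
Log2 fold change (Sox17ed/ed over Sox17f/f, x axis) of the genes tested in each list as points, filled red where past the thresholds, with a blue line at the median, beside a box (25th to 75th percentile) with whiskers (5th to 95th percentile) for all 14847 genes tested. The other integrin ligands lie mostly below 0 (median -0.24) and the other basement membrane genes mostly above it (median 0.13).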

How the data were processed

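Whole uteri of 3 Sox17f/f and 3 Sox17ed/ed mice were measured on 6 Agilent 1-colour arrays, and groups came from the labels. Scanner files made with Feature Extraction 11.0.1.1, per the file headers, were deposited. Their processed signal is a spot intensity from which the authors' software subtracted background and within-array trends, and arrays had not been scaled to each other. A deposited table of processed values differed from the mean of that signal over spots by at most 0.191%. The members and gene lists were chosen with earlier results of these data known.

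Control spots (3671 of 62976) and 169 to 302 outlier spots per array were left out, and no spot was saturated. Log2 signals were quantile normalized, as the methods of the study state, and spots of a probe averaged. A probe was tested if 3 or more of the 6 arrays read it well above background, and the tested probe of highest mean signal stood for a gene. Subtracting background makes dim values uncertain on the log2 scale, so probes below background in a whole group are given as bounds. Of 55681 probes, 26582 were matched by accession to the names of GRCm38.p6. The array design is annotated on mm9, so no array coordinates are given. Differences were tested with limma 3.58.1 (lmFit, eBayes) under R 4.3.3. P-values of the 14847 genes were adjusted by the Benjamini-Hochberg method, and results were tallied with Python 3.11.15, pandas 2.3.3, numpy 2.4.6 and matplotlib 3.10.9. Genes passed at an unadjusted p under 0.01 and a fold of at least 1.4. On simulated data of this comparison (14847 genes), 90 of 100 genes changed by 1 log2 unit and 98 of 100 changed by 2 were recovered, with 60 unchanged genes called. Changes smaller than 1 log2 unit, which most members past the thresholds had, were not simulated.

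Each array held 1 mouse, so p-values set the difference between genotypes against the spread of mice and arrays within a genotype. They do not cover an effect of the slide row, and 3 arrays per group limit the precision. All members are named or counted, with every array value for those past the thresholds, except that 1 member and 1 marker gene are not reported here by name. Of the other lists, genes past the thresholds are named, at most 8 a list. Alternatives changed the scaling, background correction (normexp on the median signal, since no mean signal was in the files), filter, probe rule, variance trend, source of values, thresholds and replicate block, and left out each array.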

Additional observations from a re-analysis of the deposited data

How the results depend on the processing

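Of the 11 members past the thresholds, *Agrn*, *Itga9*, *Itgb6*, *Lamb3*, *Lamc3* and *Nid2* passed in all 15 alternatives with 6 arrays or with 1 left out, *Itga7* and *Itga11* in 12, and *Itga5* and *Itgb7* in 10, and none of the 11 changed sign. With an array left out the members past the thresholds numbered 7 to 11 (7 without the second Sox17ed/ed replicate), the genes 1584 to 1946 and the genes of the 5 other pathway lists 20 to 25. At a fold of at least 2 there were 2 members, 817 genes and 7 list genes. With adjusted p under 0.05 and no fold threshold there were 18 members and 2808 genes. Under normexp the list genes numbered 17. Among members not past the thresholds, *Hspg2* (-0.0466), *Lamb1* (-0.0332) and *Nid1* (-0.054) turned sign with scaling to the 75th percentile, and *Itga4* (0.0016), *Lamb1* (-0.0106) and *Nid1* (-0.0235) with normexp. With the mean of the probes of a gene *Itgb3* was at -0.10, *Lama3* at 0.50 and *Nid1* at -0.11, with the probe of smallest p *Itgb3* at -0.31 and *Nid1* at -0.20, and with the deposited values *Nid1* at -0.0039. The deposited values keep the outlier spot of *Itga3* and put it at 3.47. Leaving out each array turned signs within these ranges: *Dag1* -0.15 to 0.0008, *Hspg2* -0.0437 to 0.111, *Itga4* -0.0834 to 0.0141, *Itgav* -0.363 to 0.0242, *Itgb8* -0.122 to 0.0171, *Lama1* -0.0472 to 0.269, *Lamb1* -0.0819 to 0.0973, *Nid1* -0.0228 to 0.0569 and *Vtn* -0.0282 to 0.0653. The cause was not tested. The replicate numbers did not pair the mice (correlations of deviations 0.0635, -0.113 and -0.000107), and with the number as a replicate block 11 members and 1796 genes passed, *Spp1* among them and 10 of the 11 shared. With 3 arrays a group, the intervals of members that did not pass allow small changes.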
